A study of Homo sapiens with 20 samples.

Results

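The genes described here encode 9 enzymes that break down tyrosine and tryptophan, and they were followed in differentiating HepaRG cells on Agilent 8x60K arrays. The genes are *TAT*, *HPD*, *HGD* and *FAH* of tyrosine breakdown, and *TDO2*, *AFMID*, *KMO*, *KYNU* and *HAAO* of tryptophan breakdown. They were chosen by name, and every probe whose accession maps to one of these symbols was taken, which gave 13 probes of the 42405 on the array. Of these, 12 passed the filter on dim probes, and all 9 genes are among the 22221 genes tested. HepaRG is an established line from a human liver tumour, and its progenitor cells can become hepatocyte-like or biliary-like during culture. All cells were kept in serum with insulin and the glucocorticoid hydrocortisone. The design holds 20 arrays, 4 independent cultures for each of 5 conditions. Cells were taken at day 4 (D4) and day 15 (D15) without dimethyl sulfoxide (DMSO). At day 30 they were taken either without DMSO (D30 − DMSO) or after 2% DMSO from day 15 on (D30 + DMSO). The last group of cells had received DMSO until day 30 and were taken 4 days after its removal (D34 ± DMSO).

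Catabolism of both amino acids is a function of the hepatocyte. Tyrosine is transaminated by tyrosine aminotransferase (TAT), converted to homogentisate by 4-hydroxyphenylpyruvate dioxygenase (HPD), opened by homogentisate dioxygenase (HGD) and finally split into fumarate and acetoacetate by fumarylacetoacetase (FAH). Inherited loss of FAH causes hereditary tyrosinemia, and loss of HGD causes alkaptonuria. Tryptophan enters the kynurenine pathway through tryptophan 2,3-dioxygenase (TDO2), and arylformamidase (AFMID), kynurenine monooxygenase (KMO), kynureninase (KYNU) and 3-hydroxyanthranilate dioxygenase (HAAO) lead from there towards quinolinate and NAD. *TAT* and *TDO2* are textbook targets of glucocorticoids.

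Each array holds 58717 non-control spots. The share that the scanner software rated well above background ranged from 61.1% to 74.2%. Signals were divided by the 75th percentile of the array, so that on the log2 scale used below 0 is that percentile, and a value of 1 is a signal of 2 times it. Across genes, the correlation between replicates of a condition was 0.955 at the lowest and 0.992 at the highest. The 20 arrays lie on 4 slides, and slide 4 holds replicate 4 of every condition with replicate 3 of D15 and D30 + DMSO. Of the 10 hepatocyte markers examined, including *ALB*, *TTR* and *APOA1*, 9 were above background on all D4 arrays and 10 at every later stage. Of the 10 biliary markers, 8 were above background on all arrays of every condition, among them *KRT7* and *KRT19*, and *EPCAM* and *CFTR* on no array.

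In the RefSeq annotation of GRCh38.p14, *TAT* lies at chr16:71565660-71577092, *HPD* at chr12:121839527-121888611, *HGD* at chr3:120628172-120682239 and *FAH* at chr15:80152789-80186949. *TDO2* lies at chr4:155903696-155920406, *AFMID* at chr17:78187362-78207702 and *KMO* at chr1:241532378-241595642. *KYNU* and *HAAO* are both on chromosome 2, at chr2:142877664-143055833 and chr2:42767089-42792583. RefSeq promoter windows (GRCh38.p14) matched 7 of the 9 genes, with 9 windows. The 250 bases before the annotated start are printed for *TDO2*, *HAAO* and *KMO*, because these genes gave the 3 different courses described below. Capitals mark the motifs found.
TDO2: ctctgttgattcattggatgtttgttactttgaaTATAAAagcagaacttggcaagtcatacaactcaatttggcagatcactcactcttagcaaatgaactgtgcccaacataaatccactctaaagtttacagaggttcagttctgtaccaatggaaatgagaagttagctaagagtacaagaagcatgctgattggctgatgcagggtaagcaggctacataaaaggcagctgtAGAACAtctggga
HAAO: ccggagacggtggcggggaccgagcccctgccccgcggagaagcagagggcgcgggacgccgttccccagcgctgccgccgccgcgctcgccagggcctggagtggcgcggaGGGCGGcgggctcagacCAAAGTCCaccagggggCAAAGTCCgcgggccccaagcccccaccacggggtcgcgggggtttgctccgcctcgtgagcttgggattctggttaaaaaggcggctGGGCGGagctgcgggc
KMO: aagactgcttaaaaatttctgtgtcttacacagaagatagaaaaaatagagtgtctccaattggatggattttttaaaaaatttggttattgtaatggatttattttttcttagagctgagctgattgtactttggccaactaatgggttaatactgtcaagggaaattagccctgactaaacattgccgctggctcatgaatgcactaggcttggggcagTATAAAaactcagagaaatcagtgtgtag
The *TDO2* window is on the plus strand at chr4:155903446-155903695, that of *HAAO* on the minus strand at chr2:42792584-42792833, and that of *KMO* on the plus strand at chr1:241532128-241532377. All 3 are written 5′ to 3′ in the direction of transcription.

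On both strands, 7 short motifs were searched, which bind factors of the liver or are common at promoters. They were the HNF4 motif CAAAGTCC, the FOXA motif TGTTTAC, the C/EBP motif TTGCNNAA, the nuclear receptor motif AGGTCA, the glucocorticoid receptor motif AGAACA, the TATA box TATAAA and the GC box GGGCGG. The *HAAO* window holds the HNF4 motif at 2 places, starting 121 and 104 bases before the start, and these letters are found in 1.02% of all 35116 windows of the same length. It also holds 2 GC boxes, a motif of 42.6% of windows. The *TDO2* window holds the glucocorticoid receptor motif 13 bases before the start, which 12.4% of windows have at some place, and a TATA box 216 bases before it, found in 10.7%. The *KMO* window holds a TATA box 29 bases before the start and none of the other motifs. None of these matches overlap. A match is a description of the sequence and not a binding site.

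To learn what the first 2 weeks of culture do to these genes, D15 was compared with D4. Breakdown genes of both amino acids rose, and *TDO2* rose most, 51.4-fold. A gene was called when its change exceeded 2-fold and limma's moderated test gave p below 0.005 after Benjamini-Hochberg adjustment over all genes. By this rule 5 of 9 genes were called higher (*TDO2*, *HPD*, *TAT*, *HAAO* and *HGD*) and 0 lower. Over all 22221 genes, 9.49% were called in this comparison, 5.79% as higher and 3.69% as lower. The median log2 difference was 1.34 over the 9 genes and 0.04 over all genes tested.

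*TDO2*, the entry step of the kynurenine pathway, had log2 signals of -2.33, -1.20, -3.28 and -0.72 on the 4 D4 arrays. At D15 the same probe read 3.59, 3.88, 3.52 and 4.22. The D4 cultures differed among themselves by over 2 log2 units, but the lowest D15 array was still far above the highest D4 array. The log2 difference was 5.68 ± 0.39 (SE, adjusted p = 5.07e-09 by limma, n = 4 arrays per condition). *TDO2* then kept its level, with means of 4.05 ± 0.14 (SD, n = 4) at D30 − DMSO, 4.04 ± 0.44 at D30 + DMSO and 4.17 ± 0.34 at D34 ± DMSO.

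*HPD*, which makes homogentisate, read 1.78, 1.57, 1.32 and 2.63 at D4 and 4.08, 4.32, 4.58 and 4.67 at D15. The groups did not overlap, and the log2 difference of 2.59 ± 0.24 (SE, adjusted p = 1.6e-07 by limma) is a 6.02-fold rise. *TAT*, the transaminase that opens tyrosine breakdown, was dim at D4. Its signals there were -5.79, -6.23, -4.80 and -4.66, and only 2 of the 4 arrays were above background. At D15 they were -2.86, -3.06, -3.03 and -2.37, which is 5.81-fold higher (log2 difference 2.54 ± 0.40 SE, adjusted p = 9.82e-05 by limma). The normexp background correction of limma was run with an offset of 50 intensity units, which compresses differences of dim probes. With it the log2 difference of *TAT* was 0.97 and was no longer called.

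*HGD* and *HAAO*, 1 dioxygenase gene of each pathway, had smaller rises. *HGD* went from 3.10, 3.00, 2.77 and 3.51 at D4 to 4.37, 4.32, 4.45 and 4.63 at D15, a 2.54-fold rise (log2 difference 1.34 ± 0.16 SE, adjusted p = 4.56e-06 by limma). *HAAO* went from 1.03, 0.51, 0.72 and 1.36 to 2.27, 2.12, 2.44 and 2.67, a 2.77-fold rise (log2 difference 1.47 ± 0.18 SE, adjusted p = 6.62e-06 by limma). In both genes every D15 array was above every D4 array.

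The other 4 genes were not called by the probes that stand for them, but the dimmer probes of *KMO* and *AFMID* were, as described below. *AFMID*, the formamidase after TDO2, had a log2 difference of 0.97 ± 0.25 (SE, adjusted p = 0.00744 by limma), and *KMO* of 0.54 ± 0.16 (adjusted p = 0.0219), each with its brighter probe. *FAH*, the last enzyme of tyrosine breakdown, differed by 0.46 ± 0.14 (adjusted p = 0.0192 by limma), with overlapping arrays. *KYNU*, which splits kynurenines, differed by 0.00 ± 0.17, with a 95% interval of -0.35 to 0.35. Counting arrays alone, 7 of 9 genes had all D15 arrays above all D4 arrays and 0 the reverse. Among all genes 24.2% did not overlap, 12.8% being higher and 11.4% lower. In these cultures fewer cells of a type and less RNA per cell cannot be told apart. All 10 hepatocyte markers were called higher at D15 and all 8 proliferation markers lower. The stellate and fibroblast markers *COL1A1* and *LUM* were called lower, with the summed signal of the list between 2305% and 3722% of the 75th percentile at D4 and between 1022% and 1528% at D15. The biliary marker *SPP1* and the macrophage marker *CD68* were called higher, by 1.70 and 1.41 on the log2 scale. *TEK*, an endothelial marker above background on 1 D15 array, was called higher too. The endothelial markers *KDR* and *CDH5* differed by 0.15 and -0.27 and were not called. The part of such shifts in the changes of the 9 genes was not tested. On slides 2, 3 and 4, which hold both conditions, each of the 5 called genes was higher at D15, by between 1.03 and 7.16 log2 units. Slides 2 and 3 held only 1 array of each condition, and slide 4 held 2 of D15 and 1 of D4. With slide as a block *AFMID* was called too, at 1.00 (adjusted p = 0.00437 by limma).

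**Figure D1:**
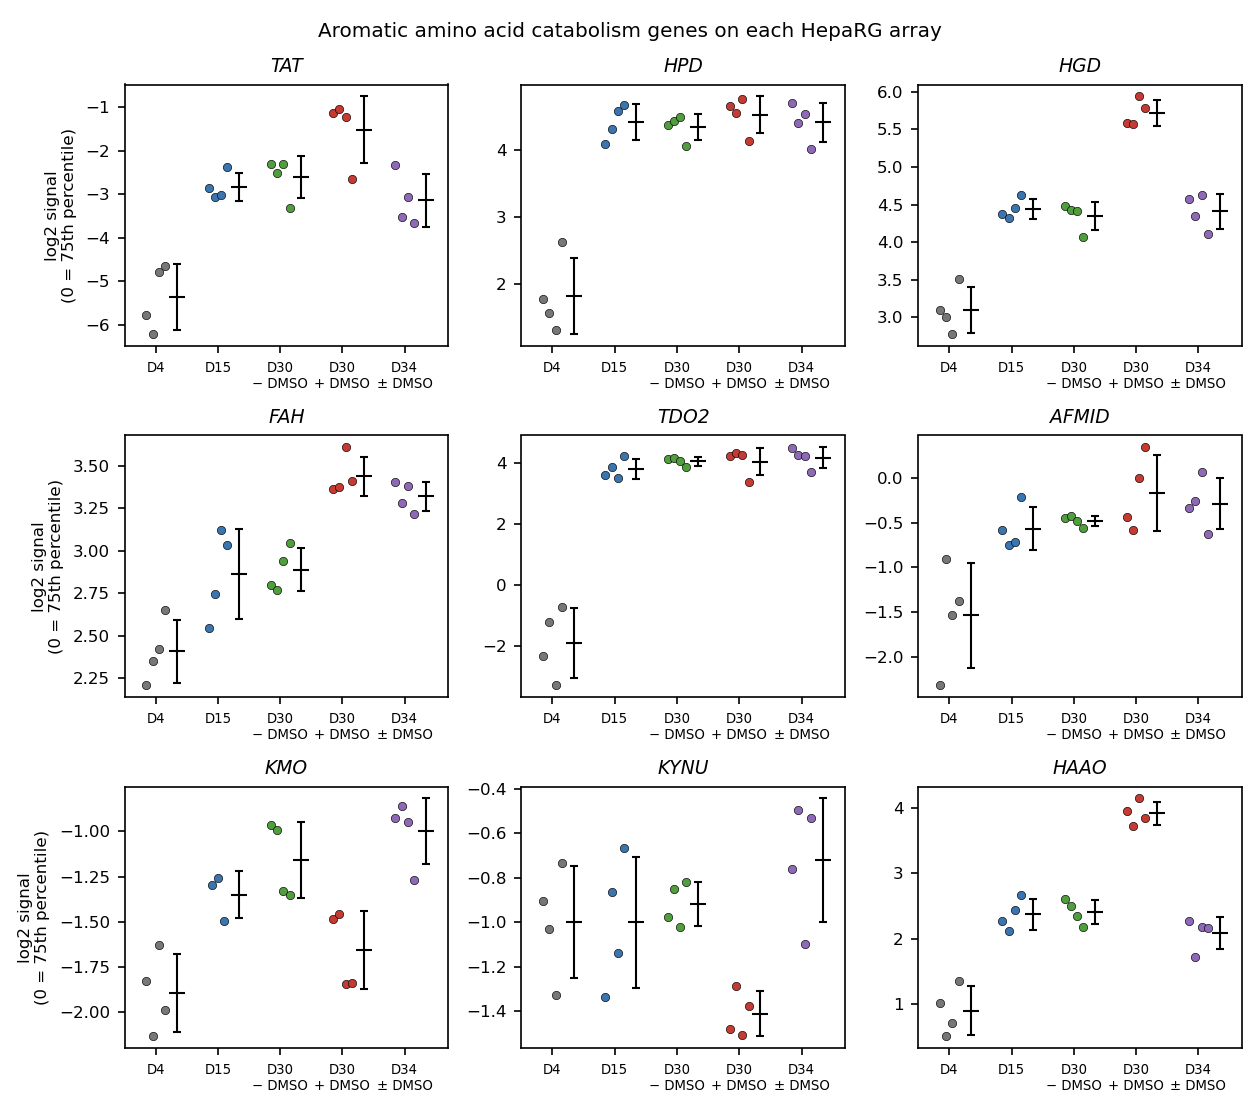
Log2 signal (y axis, 0 is the 75th percentile of the array; each panel has its own scale) of the 9 genes on each array, by condition (x axis), with 1 point per array and the mean ± SD beside the points; each gene is shown by its brightest probe. *TDO2* and *HPD* stay on 1 plateau after D15, *HGD* and *HAAO* have their highest level at D30 + DMSO, and *KYNU* has its lowest level there.

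The comparison of D30 − DMSO with D15 asks what 2 further weeks without DMSO change. By limma 0 of 9 genes were called, 0 had an unadjusted p below 0.05 (662 of 22221 genes had), and 0 were called by the methods' t-test, while 0.0045% of all genes were called. Among the probes that stand for the genes, the largest differences were 0.25 for *TDO2* (95% interval -0.58 to 1.07) and 0.23 for *TAT* (-0.62 to 1.08), and the narrowest interval was that of *FAH*, -0.26 to 0.31. The dimmer of 2 *KMO* probes differed by 0.62 (-0.12 to 1.36), not called. Arrays of both conditions overlapped for all 9 genes, whereas 2.32% of all genes did not overlap, 1.24% being higher and 1.08% lower.

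DMSO addition was examined at matched age, as D30 + DMSO against D30 − DMSO. *HGD* and *HAAO* rose, 2.57-fold and 2.84-fold, whereas *TDO2* and *HPD* stayed close to their level without DMSO. Of 9 genes, 2 were called higher and none lower, against 5.91% of all genes called, 1.73% as higher and 4.18% as lower. The median log2 difference was 0.31 over the 9 genes and 0.04 over all genes.

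*HGD* read 4.48, 4.43, 4.42 and 4.07 without DMSO and 5.58, 5.56, 5.94 and 5.78 with it. *HAAO* read 2.61, 2.50, 2.35 and 2.19 without DMSO and 3.95, 3.73, 4.15 and 3.85 with it. In each gene more than 1 log2 unit lay between the arrays of the 2 conditions. The log2 difference was 1.36 ± 0.16 (SE, adjusted p = 8.72e-06 by limma) for *HGD* and 1.51 ± 0.18 (adjusted p = 1.08e-05) for *HAAO*. The dimmer *HAAO* probe gave 1.13 ± 0.15 (adjusted p = 3.54e-05 by limma). Within slide 3 the 2 genes were higher with DMSO by 1.09 and 1.23 log2 units, and within slide 4 by 1.78 and 1.81. Each of these slides held 2 arrays with DMSO and only 1 array of D30 − DMSO. On slide 4 the latter was replicate 4, the lowest array without DMSO for both genes. With slide as a block the differences were 1.35 and 1.41, both called.

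*TAT* read -2.29, -2.50, -2.31 and -3.31 without DMSO and -1.13, -1.05, -1.22 and -2.66 with it. Replicates 1 to 3 of D30 + DMSO stood about 1 log2 unit above the highest array without DMSO, and replicate 4 lay among the untreated arrays. The log2 difference of 1.09 ± 0.40 (SE) did not pass the test (adjusted p = 0.0706 by limma, 95% interval 0.24 to 1.94). Without replicate 4 of D30 + DMSO it was 1.47 (adjusted p = 0.0112 by limma), still not called. The same array was also the lowest of its condition for *HPD* and *TDO2*, at 4.13 and 3.38, and the second lowest for *HAAO*, at 3.85. It was the highest for *AFMID*, at 0.34, and the second highest for *HGD*, *FAH* and *KYNU*, at 5.78, 3.41 and -1.38.

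*FAH* had all 4 DMSO arrays (3.36, 3.38, 3.61 and 3.41) above those without DMSO (2.80, 2.77, 2.94 and 3.05). Its log2 difference of 0.55 ± 0.14 (SE, adjusted p = 0.00717 by limma) met neither limit of the call. *HPD* differed by 0.18 ± 0.24 (95% interval -0.32 to 0.68) and *TDO2* by -0.01 ± 0.39 (95% interval -0.83 to 0.82).

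*KMO* and *KYNU*, which follow each other in the kynurenine pathway, were lower with DMSO on every array but were not called by the probes that stand for them. *KYNU* read -0.98, -0.85, -1.02 and -0.82 without DMSO and -1.48, -1.29, -1.51 and -1.38 with it (log2 difference -0.50 ± 0.17 SE, adjusted p = 0.0443 by limma). The brighter *KMO* probe gave -0.50 ± 0.15 (adjusted p = 0.0289 by limma). Its dimmer probe gave -1.92 and was called, as described below. *AFMID* gave 0.31 ± 0.25 (adjusted p = 0.481 by limma). By arrays alone 5 of 9 genes did not overlap between the conditions, 3 higher and 2 lower, against 25.1% of all genes, 12.6% in either direction.

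Other cell markers were read on the same arrays. The summed signal of the 8 stellate and fibroblast markers lay between 882% and 1830% of the 75th percentile without DMSO and between 237% and 391% with it, with *LUM* and *DCN* called lower and *COL1A2* and *PDGFRB* above background on no array. The sum of the 10 hepatocyte markers ranged from 172100% to 182300% without DMSO and from 195300% to 317800% with it, and none of the 10 was called. By mean 9 of the 10 were higher, and *CPS1* was lower, at a log2 difference of -1.49 (adjusted p = 0.0447 by limma). Of 7 macrophage and blood cell markers on the array, 5 were above background on all arrays of both conditions and *CSF1R* on none, and their sum ranged from 823% to 1072% without DMSO and from 618% to 764% with it. None of the 6 tested of these was called. The biliary marker *SOX9* was called higher (log2 difference 1.31) and *SPP1* lower (-1.78). The endothelial marker *TEK*, above background on no D30 + DMSO array, was at least 2.79-fold lower. *KDR* and *CDH5*, also endothelial, were higher by mean, at 0.42 and 0.33, and not called. The endothelial sum ranged from 66.9% to 131% without DMSO and from 74.2% to 153% with it. The part of these shifts in the differences above was not tested.

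**Figure D2:**
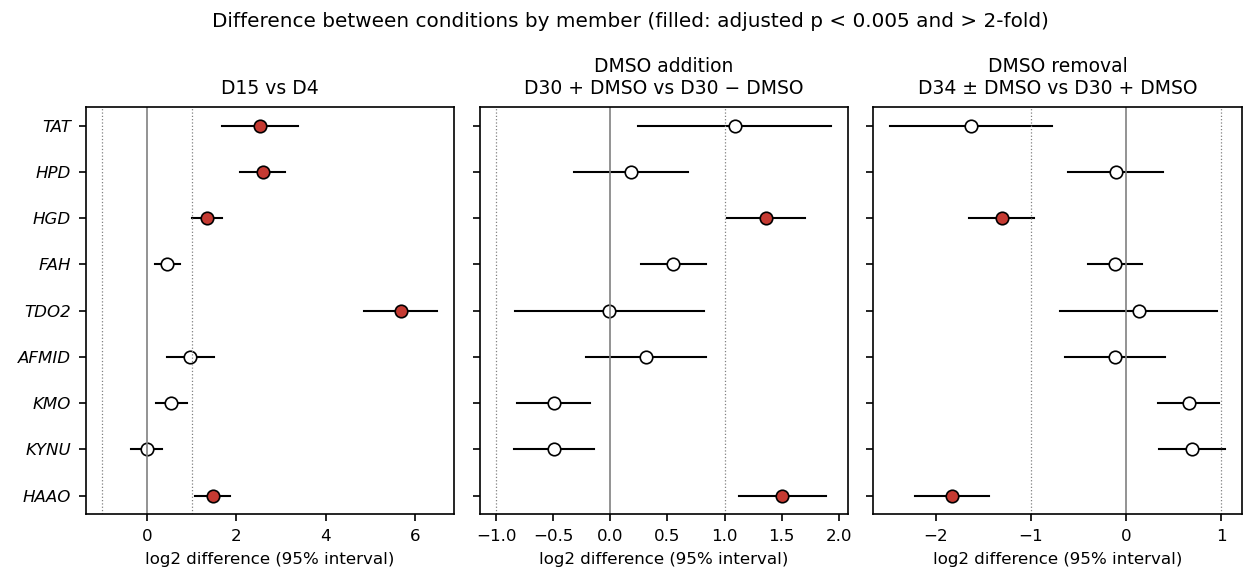
Log2 difference (x axis, point) with its 95% interval (line) from limma for the 9 genes (y axis) at D15 against D4, DMSO addition and DMSO removal, n = 4 arrays per condition (3 for *KMO* at D15); filled points passed the test and dotted lines mark 2-fold. *HGD* and *HAAO* are filled in all 3 panels, and *TDO2* and *HPD* at D15 only. The panels for addition and removal share the D30 + DMSO arrays.

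DMSO removal was examined as D34 ± DMSO against D30 + DMSO. No cells were kept in DMSO to day 34, so removal cannot be told apart from 4 more days of culture. The same arrays of D30 + DMSO serve here and for DMSO addition, so the 2 comparisons are not independent, and their values are set side by side only. *HAAO* fell 3.55-fold and *HGD* 2.47-fold. Of 9 genes, 2 were called lower and none higher, against 7.06% of all genes called, 2.1% as lower and 4.95% as higher.

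After removal *HGD* read 4.57, 4.35, 4.62 and 4.11, and *HAAO* read 2.28, 1.72, 2.18 and 2.17. All 8 values were below those with DMSO. The log2 difference was -1.30 ± 0.16 (SE, adjusted p = 1.01e-05 by limma) for *HGD*, beside 1.36 on addition, and -1.83 ± 0.18 (adjusted p = 8.16e-07) for *HAAO*, beside 1.51. Within slides 3 and 4 the 2 genes were lower after removal by between 0.98 and 1.83 log2 units. Slide 3 held 2 arrays of each condition, and slide 4 held 1 of D34 ± DMSO and 2 of D30 + DMSO. With slide as a block the differences were -1.28 and -1.71, both called.

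*TAT* read -2.32, -3.53, -3.06 and -3.66 after removal. Its log2 difference of -1.63 ± 0.40 (SE, 3.09-fold, adjusted p = 0.00627 by limma) missed the limit on the adjusted p and overlapped with replicate 4 of D30 + DMSO. Without that array the difference was -2.01 and was called (adjusted p = 0.000867 by limma). It was also called at -1.90 without replicate 1 of D34 ± DMSO (adjusted p = 0.00299 by limma) and at -1.63 without replicate 2 of D4 (adjusted p = 0.00461).

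*KYNU* (-0.76, -0.50, -1.10 and -0.53 after removal) differed by 0.69 ± 0.17 (SE, adjusted p = 0.00487 by limma) and *KMO* by 0.66 ± 0.15 (adjusted p = 0.0042) with its brighter probe. Both passed the limit on the adjusted p but not that on fold, and in both all D34 ± DMSO arrays were above all D30 + DMSO arrays. The dimmer *KMO* probe gave 2.45 and was called, as described below. *FAH* differed by -0.12 (95% interval -0.40 to 0.17), *HPD* by -0.11 (-0.61 to 0.39), *AFMID* by -0.12 (-0.64 to 0.41) and *TDO2* by 0.13 (-0.69 to 0.96). Arrays alone did not overlap for 4 of 9 genes, 2 higher and 2 lower, against 23.9% of all genes, 11.3% higher and 12.6% lower. All 8 proliferation markers were called higher after removal, with a summed signal between 97.2% and 203% of the 75th percentile at D30 + DMSO and between 981% and 2025% at D34 ± DMSO. The stellate and fibroblast sum ranged from 915% to 1872% after removal, against 237% to 391% with DMSO, and *LUM* and *DCN* were called higher. Of the biliary markers *SPP1* and *MUC1* were called higher and *SOX9* lower. The endothelial marker *TEK*, above background on no D30 + DMSO array, was called higher. *KDR* and *CDH5*, also endothelial, were lower by mean, at -1.28 and -0.21, and not called. The endothelial sum ranged from 74.2% to 153% with DMSO and from 52.2% to 75.5% after removal. No hepatocyte, macrophage or blood cell marker was called. The part of these marker shifts in the differences of the 9 genes was not tested.

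Cells that had lost DMSO were also set against cells that never received it. The former were also 4 days older, which cannot be told apart from their DMSO history. Between D34 ± DMSO and D30 − DMSO 0 of 9 genes were called by limma, against 1.52% of all genes (1.31% higher and 0.212% lower), 1 of 9 had an unadjusted p below 0.05 (3399 of 22221 genes had), and 0 were called by the methods' t-test. That gene was *FAH*, at 3.41, 3.28, 3.38 and 3.22 after removal, with all 4 arrays above those of D30 − DMSO, which 5.29% of all genes had while 6.68% had the reverse (log2 difference 0.43 ± 0.14 SE, adjusted p = 0.0822 by limma). *HGD* differed by 0.06 (95% interval -0.28 to 0.40) and *HAAO* by -0.32 (-0.71 to 0.06). *TAT* differed by -0.54, with a wide interval of -1.39 to 0.31.

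*KMO*, *HAAO* and *AFMID* have more than 1 probe. For *HAAO* both probes were called in the same comparisons and directions. For *KMO* the dimmer probe changed much more than the brighter one. It read -4.47, -6.77, -4.92 and -4.88 at D4, where 3 of the 4 arrays were above background, and -2.49, -2.18, -2.43 and -1.90 at D15, a log2 difference of 3.01 ± 0.35 (SE, adjusted p = 3.25e-06 by limma over all probes). With DMSO it fell from -1.68, -1.33, -1.52 and -1.98 to -3.38, -3.17, -3.75 and -3.89, 3.78-fold (adjusted p = 0.000683 by limma), and after removal it rose to -0.79, -0.96, -1.11 and -1.52, 5.48-fold (adjusted p = 4.91e-05). The brighter probe moved in the same directions in these 3 comparisons with differences of 0.54, -0.50 and 0.66, none called. Both probes carry the same RefSeq accession, and which of them follows the *KMO* mRNA more closely was not tested. The single spot of the brighter probe on replicate 1 of D15 was marked non-uniform by the scanner software and left out. It would have read 2.95, 19 times the median of the other D15 arrays.

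For *AFMID* the dimmer probe was called at D15 (-3.70, -3.28, -3.59 and -2.47 at D4 and -1.53, -1.89, -1.87 and -1.38 at D15), a log2 difference of 1.60 ± 0.20 (SE, adjusted p = 9.03e-06 by limma over all probes), where the brighter one reached 0.97. On DMSO addition the 2 probes differed in sign, at -0.28 for the dimmer and 0.31 for the brighter, and neither was called. The remaining *AFMID* probe, of a non-coding transcript, was above background on 8 of 20 arrays and was not tested.

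**Figure D3:**
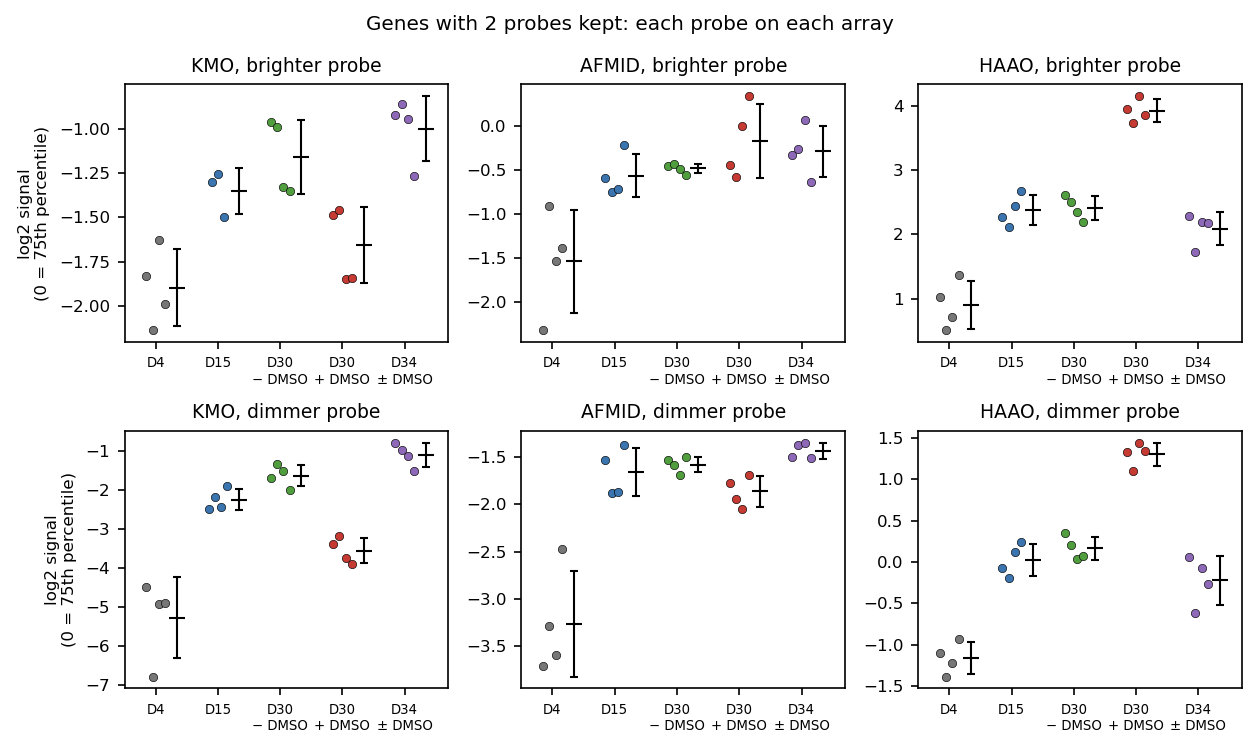
Log2 signal (y axis, 0 is the 75th percentile of the array; each panel has its own scale) of both kept probes of *KMO*, *AFMID* and *HAAO* on each array by condition (x axis), with 1 point per array and the mean ± SD. The dimmer *KMO* probe spans more log2 units than the brighter one, whose D15 group has 3 points because 1 spot was left out, while both *HAAO* probes have the same course.

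Over all 5 conditions, genes were called by limma's moderated F-test when p was below 0.001 after Bonferroni adjustment and the highest mean exceeded the lowest over 3-fold. These were *TDO2*, *HAAO*, *HPD* and *HGD*, 4 of 9 genes against 5.37% of all genes. The range between means was 66.4-fold for *TDO2* (adjusted p = 2.78e-07 by limma), 8.08-fold for *HAAO* (2.83e-06), 6.50-fold for *HPD* (5.5e-05) and 6.14-fold for *HGD* (4.61e-06). *TAT* spanned 14.5-fold but was not called (adjusted p = 0.0103 by limma), and with normexp background correction the span was 1.89 log2 units instead of 3.85, also not called. D4 was the lowest condition for 8 of the 9 genes, *KYNU* being the exception with its minimum at D30 + DMSO. D30 + DMSO was the highest for 6, and D34 ± DMSO for *TDO2*, *KMO* and *KYNU*. For *HGD* and *HAAO* the top condition was separate from the next by all arrays, while the 3 conditions below it overlapped. For *TAT*, *HPD*, *TDO2* and *AFMID* the 4 conditions after D4 overlapped with their neighbours in the order.

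The genes most like each member over the 20 arrays are given as a description, as arrays of 1 condition share their culture stage. *TDO2* was closest to *GC*, which encodes the vitamin D binding protein of plasma (Pearson r = 0.997), and *HPD* to *CIDEB*, a lipid droplet gene of hepatocytes (r = 0.991). *HGD* was closest to the retinol dehydrogenase gene *RDH5* (r = 0.980), *HAAO* to the xylulose reductase gene *DCXR* (r = 0.980) and *TAT* to the acyl-CoA thioesterase gene *ACOT1* (r = 0.957). *FAH* was closest to *SHMT2* of serine and glycine metabolism (r = 0.950). Among the 9 genes, *TDO2* with *HPD* (r = 0.981) and *HGD* with *HAAO* (r = 0.977) were the closest pairs, and each pair takes 1 gene from either pathway. *KYNU* had r between -0.470 and 0.379 with the other 8.

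The neighbouring steps of the 2 pathways were read from lists of genes. Of 11 tested phenylalanine and tyrosine genes, 1 was called higher at D15 and 0 lower. This was *DDC*, the decarboxylase of aromatic amino acids (log2 difference 2.12 ± 0.30 SE, adjusted p = 2.46e-05 by limma). Of 14 tryptophan, kynurenine and NAD genes, 6 were called higher and 0 lower. *ACMSD*, whose enzyme diverts the product of HAAO away from quinolinate, rose 32.9-fold, and *ALDH8A1*, of the same branch and above background on no D4 array, at least 4.02-fold. *NAPRT* and *NAMPT*, which make NAD from nicotinic acid and nicotinamide, rose 2.43-fold and 2.67-fold, the methyltransferase gene *INMT* 3.83-fold and the kynurenine aminotransferase gene *KYAT1* 2.10-fold. The median log2 differences were 0.51 and 0.78 for the 2 lists and 0.04 over all genes.

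With DMSO, 1 of the 11 phenylalanine and tyrosine genes was called higher and 0 lower. This was *QDPR*, whose enzyme regenerates the cofactor tetrahydrobiopterin, at 2.94-fold (adjusted p = 4.75e-05 by limma). Of the 14 tryptophan genes, *GCDH*, the glutaryl-CoA dehydrogenase of lysine and tryptophan breakdown, rose 4.26-fold, and *INMT* fell 2.92-fold. The medians were 0.06 and 0.28 on the log2 scale, beside 0.04 over all genes. *GSTZ1*, whose enzyme acts between HGD and FAH, differed by 0.86 ± 0.14 (SE, adjusted p = 0.000249 by limma), under the limit on fold. After removal *GCDH* fell 3.77-fold, *QDPR* 2.30-fold and *GSTZ1* 2.01-fold, so that 2 of 11 and 1 of 14 were called lower and 0 higher, with medians of -0.25 and -0.39 beside -0.07 over all genes. Between D34 ± DMSO and D30 − DMSO 1 of the 14 tryptophan genes was called, *INMT*, which was 4.20-fold lower, and 0 of the 11 phenylalanine and tyrosine genes. No gene of the lists was called between D30 − DMSO and D15.

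Of 7 aromatic amino acid transporters, *SLC43A1* rose 2.46-fold at D15, and *SLC7A5*, the large neutral amino acid transporter of growing cells, fell at least 5.21-fold to signals above background on no array. *SLC16A10*, which exports aromatic amino acids, rose 2.12-fold with DMSO. After removal *SLC43A2* fell 2.25-fold, and *SLC7A5* rose at least 1.84-fold, with 2 of 4 arrays above background. Of 8 regulators of liver genes, 4 were called higher at D15: *CEBPA* rose 6.45-fold, *FOXA1* 2.64-fold, *PPARA* 2.03-fold and *HNF4A*, also one of the hepatocyte markers and above background on no D4 array, at least 4.07-fold. The glucocorticoid receptor gene *NR3C1* differed by 0.15 ± 0.13 (SE, adjusted p = 0.502 by limma). None of the 8 regulators was called on DMSO addition or removal. On addition the means of 6 were higher, and *NR3C1* and *CEBPB* were lower, at -0.13 and -0.18. *AHR* differed by 0.80 ± 0.14 (SE, adjusted p = 0.000337 by limma), under the limit on fold. *PPARA* at 0.94 ± 0.23 (adjusted p = 0.00802 by limma) and *FOXA2* at 0.58 ± 0.14 (adjusted p = 0.007) met neither limit.

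**Figure D4:**
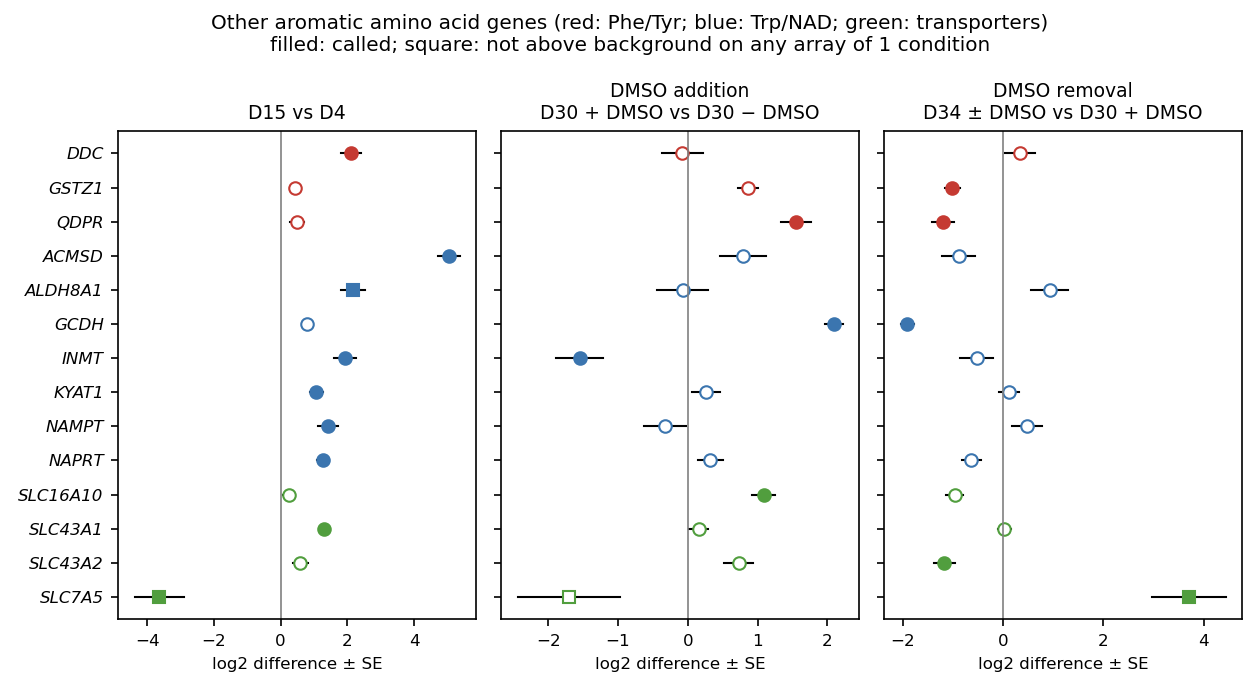
Log2 difference ± SE (x axis) of the 14 other genes of the pathways and transporters (y axis) called at D15 against D4, on DMSO addition or on DMSO removal. Values are from limma with n = 4 arrays per condition (3 for *SLC43A2* at D15). Filled symbols were called, and squares are genes above background on no array of 1 condition, whose plotted value is no measure of size. *QDPR* and *GCDH* are filled on the right of 0 for addition and on the left for removal, panels that share the D30 + DMSO arrays.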

How the data were processed

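RNA of 20 HepaRG cultures was labelled with Cy3 and hybridised to Agilent SurePrint G3 8x60K arrays by the authors, 1 culture per array. The deposited scanner files hold spot intensity, background-subtracted and detrended by Feature Extraction (10.7.1.1 per the file headers, 10.7.3.1 per the labels) and not scaled between arrays. A deposited table of log2 values equals these intensities scaled to the 75th percentile, apart from a baseline per probe that is not stated and a shift of at most 0.113 per array, over 21500 probes compared. Its column medians ran from -0.204 to 0.174, and it was used only for this comparison.

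Spots marked as outliers (265 to 644 per array) were left out and spots of a probe averaged. Values were scaled to the 75th percentile of the array (407 to 766 intensity units), set to at least 1 unit and taken to log2. A probe was kept where the 4 arrays of some condition all rated it well above background (26538 of 42405). RefSeq symbols were found for 24826 probes through their accessions, and the probe of highest mean stood for a gene, also for the 3703 genes with more. limma 3.58.1 in R 4.3.3 fitted the 5 condition means over all 20 arrays. The thresholds follow the methods of the study, which used a t-test and ANOVA in GeneSpring, run here as an alternative. The 4 replicates are independent experiments per the labels, and their number limits the precision. A fold against a condition above background on no array is given as at least the bright mean over the lowest signal well above background. Members, gene lists and the rule for naming genes (all members, and list genes that were called) were chosen with earlier results of these data known. Some regulators that were not called are named as well. Scripts were tested on simulated data. Alternatives covered background correction, scaling, floor, filter, choice of probe, slide, scan session and replicate number as blocks, test, thresholds and leaving out each array. Keeping outlier spots and taking the next brightest probe were added after the data had been seen. The lists also held *HPDL*, *IDO2* and *TPH1*, whose probes did not pass the filter, and *SLC3A2*, which is not analysed here. A few genes of the lists and a promoter motif are not reported here and stay out of the counts.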

Additional observations from a re-analysis of the deposited data

Results flagged for a closer look

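Within each condition of 4 arrays, the most extreme array of each member probe was compared with the rest by Dixon's ratio of its gap to the whole range. Of 64 such groups 3 were past the 95% critical value, and chance alone gives about 1 in 20. *TAT* on replicate 4 of D30 + DMSO read -2.66, the nearest other array -1.22. *TDO2* on the same array read 3.38, the nearest other 4.22. *HGD* on replicate 4 of D30 − DMSO read 4.07, the nearest other 4.42. Both arrays lie on slide 4, which was scanned in a session of its own, and the part of slide and scan in these values was not tested.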

How the results depend on the processing

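Over 36 alternatives no member changed direction with a call, and 7 single member values lost a call, 22 gained one and 1900 kept their side of the threshold. At D15 against D4, 5 genes were called, and 3 by the methods' t-test (*TDO2*, *HPD* and *HGD*). At DMSO removal 2 were called, and 4 with no limit on fold (*HGD*, *HAAO*, *KMO* and *KYNU*). No share of all genes is given for these changed rules or with an array left out. The member counts there cannot be set against one. Leaving out each array in turn gave 5 to 6 called genes at D15, 2 on addition, 2 to 3 on removal, 0 in the other comparisons and 3 to 4 by F-test. The F-test call of *HPD* was lost without replicate 1 or 2 of D4 and with slide as a block, and *AFMID* was called at D15 without replicate 2 of D4 (log2 difference 1.18). *TAT* was called on removal with normexp background correction (-1.03), a floor of 10 intensity units, scan session as a block (-1.69) or an adjusted p below 0.05. Replicate numbers do not mark pairs in the labels, and the deviations of same-numbered arrays correlated with a median r of 0.274 and a lowest of -0.327. With the replicate number as a block, 5, 0, 2, 2 and 0 members were called in the 5 comparisons, as without it, and 3 by F-test, *HPD* being lost. Of all 22221 genes, 2355, 1, 1544, 1776 and 426 were called with this block in the same comparisons. Arrays of 1 slide deviated together more (median r 0.387). With slide as a block, the genes called over the whole array changed from 2108 to 2520 at D15, from 1314 to 1619 on addition and from 1568 to 1871 on removal, and between D30 − DMSO and D15 from 1 to 4. Testing every probe, or taking the next brightest, added the *KMO* and *AFMID* calls described for their dimmer probes and an F-test call of *KMO*. *TAT* dropped out when a probe had to be well above background everywhere. Signal close to background limits *TAT* and the dimmer *KMO* probe at D4.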
